A study of Homo sapiens with 2 samples.

Results

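The 60 genes described here encode nucleolar proteins that assemble the ribosome. They were chosen by name, as members of the pathway in which AATF acts, and all 60 were found among the 19794 protein-coding genes of the annotation, GENCODE release 44 placed on the hg19 build of the human genome. NRF-1 occupancy was measured by chromatin immunoprecipitation and sequencing (ChIP-seq) in U251 cells, an established glioblastoma line, transiently transfected with either control siRNA, named siControl, or siAATF, which per the study was the oligonucleotide numbered 1. Both conditions shared the line and the NRF-1 antibody, and the libraries were made by ChIPmentation, in which a transposase adds the adapters to the chromatin on the beads. Each sample label names U251 and replicate 1, whereas the design text of the series names U138 and the protocol speaks of duplicates. There was 1 peak list per condition, so no spread between replicates was computed, no test between conditions was made, and every difference between siControl and siAATF is a difference between 2 libraries that may be technical.

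Ribosomes are built in the nucleolus, where RNA polymerase I transcribes a long precursor of the ribosomal RNAs. The small-subunit processome, a large particle that forms on the growing transcript, contains the UTP-A, UTP-B and MPP10 complexes and the U3 small nucleolar RNA (snoRNA). Box C/D and box H/ACA particles methylate and pseudouridylate the RNA under the guidance of snoRNAs, and other factors mature the large subunit. AATF works in the small-subunit pathway in a complex with NGDN and NOL10. NRF-1 binds a palindrome rich in CpG that lies close to many transcription starts and is best known from genes for mitochondrial proteins, and the question the ChIP-seq addressed was whether its occupancy depends on AATF.

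The NRF-1 core was taken as the palindrome GCGCATGCGC, which reads the same on both strands, with up to 1 mismatch. Substitutions are counted from 1 at the 5′ end of the core in the direction of the gene, so A5C and T6G are the same change read from opposite strands. The second word searched was the E-box CACGTG, a palindrome bound by MYC with MAX and by the USF proteins. The sequences given first are those of 7 members in which a core and an E-box inside the siControl peak lay at most 50 bases apart, since this arrangement joins both features that the sequence results turn on. Each is written 5′ to 3′ in the direction of the gene, from the GRCh37 assembly, with the core and the E-box in capitals.
UTP18: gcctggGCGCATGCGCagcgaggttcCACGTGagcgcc
WDR43: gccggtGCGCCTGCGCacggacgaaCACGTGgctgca
FBL: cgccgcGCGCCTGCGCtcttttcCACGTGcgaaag
UTP20: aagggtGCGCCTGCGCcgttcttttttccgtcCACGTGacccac
NAT10: tttaatGCGCTTGCGCACGTGctgtct
NOL7: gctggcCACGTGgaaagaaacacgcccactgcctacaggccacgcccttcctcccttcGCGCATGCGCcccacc
UTP11: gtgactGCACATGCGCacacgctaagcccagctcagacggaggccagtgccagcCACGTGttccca

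The UTP18 stretch is chr17:49337885-49337922 on the plus strand, with an exact core centred 12 bp upstream of the canonical transcript start and an E-box centred 6 bp downstream of it, in the 5′ untranslated part of exon 1. WDR43 (chr2:29117511-29117547, plus strand) and FBL (chr19:40337002-40337036, minus strand) had the same order, a core with A5C just upstream of the start and an E-box in the untranslated part of exon 1, with 9 and 7 bases between the words. UTP20 (chr12:101673841-101673884, plus strand) carried A5C with 16 bases between the words, both upstream of the start. In NAT10 (chr11:34127146-34127172, plus strand) the core carried A5T and its last base was also the first base of the E-box, so that the words share 1 base. NOL7 (chr6:13615412-13615485, plus strand) had an exact core 93 bp upstream of the start with the E-box on its far side, and in UTP11 (chr1:38478098-38478163, plus strand) the core with G3A lay 298 bp upstream. BYSL was the other member with such a pair, with 22 bases between a core at the start and an E-box 30 bp downstream, and its stretch lies mostly in the untranslated exon and is not printed.

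Several cores in 1 promoter were shown by DKC1 and RRP1, whose stretches lie upstream of the start and outside annotated exons. DKC1 (chrX:153990855-153991013, plus strand) held an exact core 141 bp and a core with T6G 270 bp upstream. RRP1 (chr21:45209235-45209301, plus strand) held 4 matches, of which 3 were overlapping copies with T6G in a repeat of 6 bases and the fourth carried G3C.
DKC1: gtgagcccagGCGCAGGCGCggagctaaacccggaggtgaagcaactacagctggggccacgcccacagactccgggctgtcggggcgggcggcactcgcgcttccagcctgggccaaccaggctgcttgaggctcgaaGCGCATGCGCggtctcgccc
RRP1: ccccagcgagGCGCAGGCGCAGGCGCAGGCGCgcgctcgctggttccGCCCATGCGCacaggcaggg

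The promoter window of a gene reached 1 kb upstream and downstream of each of its protein-coding transcript starts, and a peak overlapping it by at least 1 base was counted. For each gene the peak with the highest −log10 q was used, where q is the MACS2 estimate of the false discovery rate of the peak. The fold enrichment over the local background was turned into a percentile rank within its own list, from 0 for the weakest peak to 100 for the strongest, because the number of reads behind each list was unknown. The siControl list held 18014 peaks with a median −log10 q of 9.89 and a highest value of 116, and the siAATF list held 18454 peaks with a median of 9.24 and a highest value of 104. The ChIP-seq methods used here name no input or IgG library for the peak calls.

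NRF-1 peaks were found at most of the 60 promoters in both conditions. In siControl 54 members had a promoter peak (90%, exact 95% interval 79.5 to 96.2) beside 61.1% of all coding genes, and in siAATF 56 members had one (93.3%, 83.8 to 98.2) beside 60.7%. The intervals are Clopper-Pearson intervals that cover counting error only, and the members are a chosen list and not a sample. A peak in both lists was present in 54 of the 60 members (90%), beside 59.5% of coding genes. All 54 siControl members thus also had a siAATF peak, as did 11774 of the 12095 coding genes with a siControl peak. None of the members had a peak in siControl alone, beside 1.62%, and 2 had one in siAATF alone (3.33%), beside 1.17%. RRP12 counts in both lists through a peak at the start of another gene, PGAM1, 24.9 kb from its canonical start. Within 1 kb of that canonical start it had a peak in siControl alone, with a −log10 q of 2.04. With a −log10 q of at least 5 the members with a peak were 44 in siControl (73.3%) and 47 in siAATF (78.3%), beside 51.5% of coding genes in siControl and 51.5% in siAATF.

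The members spanned nearly the whole range of peak strength. Over members with a peak, −log10 q ran from 2.50 to 105 in siControl with a median of 20.1, beside 18.1 over all coding genes with a promoter peak, and from 1.23 to 86.2 in siAATF with a median of 18.8, beside 17.6. The median rank was 71.0 in siControl (interval 54.9 to 82.8, n = 54) beside 63.2, and 67.7 in siAATF (61.3 to 77.2, n = 56) beside 64.4. The strongest decile of peaks by −log10 q held 11 members in each list (18.3%), beside 9.83% of coding genes in siControl and 10.1% in siAATF. Of these, 10 were in the decile in both lists, UTP4 was there in siControl and UTP20 in siAATF. RRP12, among the 10, was there through its peak at the PGAM1 start.

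**Figure D1:**
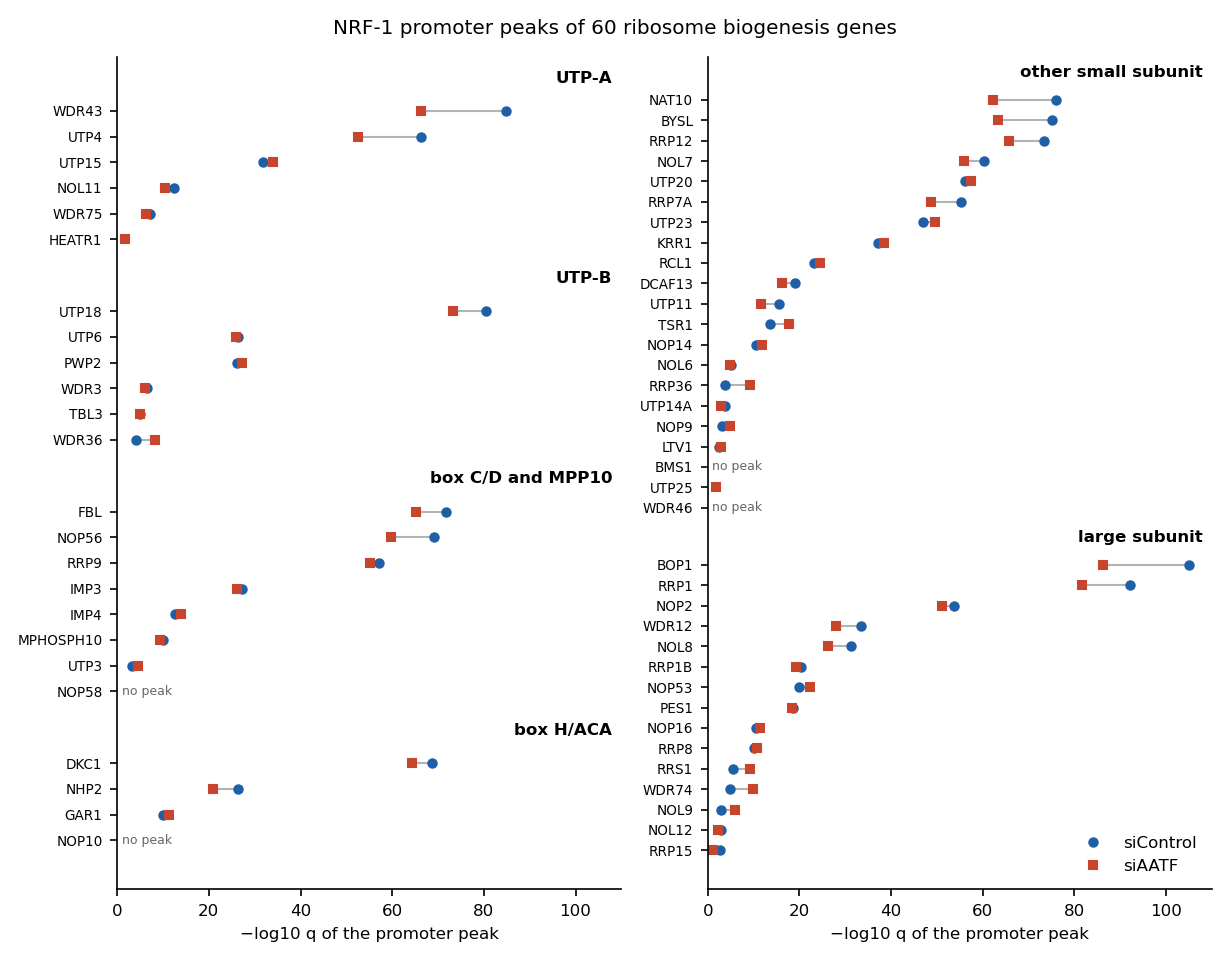
−log10 q (x axis) of the promoter peak of each of the 60 members, grouped by role and ordered by the siControl value, with circles for siControl and squares for siAATF, 1 list each. The highest members of each group lie between 68.7 and 105 in siControl, 4 members have no peak in either list, and HEATR1 and UTP25 have a square only.

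The UTP-A complex binds the newborn precursor first and is linked to transcription by RNA polymerase I. WDR43 had the strongest peak of this group, with a −log10 q of 84.8 in siControl and 66.3 in siAATF, ranks of 90.9 and 83.4, and the core and E-box pair across its start shown above. UTP4 followed with 66.3 and 52.6 and no core, and shares its peak with the gene CHTF8, whose start lies 61 bp away on the opposite strand. UTP15 was at 31.9 in siControl and 34.0 in siAATF, NOL11 at 12.5 and 10.5, and WDR75 at 7.24 and 6.20. The group thus held both strong and weak peaks in each list. HEATR1, the largest protein of the complex, had no promoter peak in siControl, where the nearest peak lay 80.1 kb from its start. In siAATF it had a peak of 200 bp with a −log10 q of 1.67 and a rank of 8.84, among the weakest of the list.

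UTP-B is a scaffold made mostly of WD40-repeat proteins that joins the early particle together with U3. UTP18 led this group with a −log10 q of 80.4 in siControl and 73.4 in siAATF, while its rank by fold enrichment was only 57.6 and 57.4, a broad peak of moderate height that also covers the start of the opposed gene MBTD1. UTP6 and PWP2 had −log10 q of 26.3 and 26.0 in siControl and of 25.8 and 27.3 in siAATF. WDR3 stood at 6.56 and 6.10, and TBL3 at 5.07 and 5.08. WDR36 was the member of this group that differed most between the lists, with a −log10 q of 4.21 in siControl and 8.27 in siAATF and ranks of 37.8 and 71.3, a difference of 33.5 points.

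The box C/D proteins carry the methylation guides and U3 itself. FBL, the methyltransferase of these particles, had a −log10 q of 71.7 in siControl and 65.3 in siAATF. NOP56, a core protein of the same particles, was at 69.1 and 59.8, and RRP9, specific to U3, at 57.2 and 55.1. NOP58, which pairs with NOP56 in the particle, had no promoter peak in either list, and the nearest peaks were 27.0 kb and 26.9 kb from its start. In the MPP10 complex, which links U3 to the precursor, IMP3 was at 27.3 and 26.1, IMP4 at 12.5 and 14.0 and MPHOSPH10 at 9.93 and 9.45. UTP3, a processome protein that contacts this complex, was weak at 3.27 and 4.65.

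Of the 4 box H/ACA proteins 3 had peaks in both lists, beside 59.5% of coding genes. DKC1, the pseudouridine synthase, was at 68.7 in siControl and 64.4 in siAATF, with ranks of 87.6 and 88.3. NHP2 was at 26.4 and 21.0 and its rank was 84.5 in siControl and 68.0 in siAATF, and GAR1 was at 9.94 and 11.3. NOP10, the smallest protein of the particle, had no promoter peak in either list although a strong peak lay nearby, 4.73 kb from its start with a −log10 q of 78.5 in siControl and 4.70 kb away with 61.4 in siAATF, outside the 1 kb window.

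The other small-subunit factors numbered 21, of which 18 had a peak in siControl and 19 in siAATF, beside 61.1% and 60.7% of coding genes. The strongest were NAT10, the enzyme that acetylates cytosines of the 18S RNA, at 76.0 in siControl and 62.3 in siAATF, and BYSL, a factor of the pre-40S particle, at 75.01 and 63.4. RRP12, an export factor, was at 73.4 and 65.8, but its peak lay 24.9 kb from its canonical start and covered the start of PGAM1, reached through another transcript of RRP12. Near its canonical start it had a weak siControl peak with a −log10 q of 2.04, and no siAATF peak there. NOL7, UTP20, RRP7A and UTP23 followed between 46.9 and 60.3 in siControl, and KRR1 at 37.2 had the highest siAATF rank of all members at 99.1. RCL1, DCAF13, UTP11, TSR1 and NOP14 lay between 10.6 and 23.1 in siControl. TSR1 shares its siControl peak with SGSM2, and its siAATF peak was split in 2 parts of which the stronger lay over SGSM2.

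The weak end of the same group was made up of NOL6, RRP36, UTP14A, NOP9 and LTV1. NOL6, a component of the UTP-C complex, lay on either side of the stricter limit, with a −log10 q of 5.13 in siControl and 4.95 in siAATF. LTV1, an assembly factor of the pre-40S particle, had one of the 2 lowest siControl ranks at 19.2, and its peaks in the 2 lists lay side by side without overlap. UTP25 had a siAATF peak with a −log10 q of 1.85 and a rank of 10.9, and its nearest siControl peak was 43.0 kb away. BMS1, the GTPase of the processome, and WDR46, a scaffold protein, had no promoter peak in either list. Their nearest peaks were 12.6 kb and 121 kb from the starts. BMS1 has near-identical copies in the genome, and whether reads were lost there was not tested.

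All 15 large-subunit factors had a peak in both lists, beside 59.5% of coding genes. The siControl peaks of PES1, WDR12, WDR74 and NOL8 did not cover the canonical start. BOP1, a part of the PeBoW complex with PES1 and WDR12, had the highest −log10 q of all members, 105 in siControl and 86.2 in siAATF, in a peak shared with HSF1, whose start lies 204 bp away on the opposite strand. The annotation gives no canonical transcript for BOP1, and its first start was used. RRP1, a nucleolar scaffold, came next at 92.0 and 81.7, and NOP2, a methyltransferase of the 28S RNA, stood at 53.8 and 51.0. The other parts of PeBoW were lower, with PES1 at 18.6 and 18.4 and WDR12 at 33.5 and 27.9, and the WDR12 peak was nearest the start of CARF. NOL8, RRP1B and NOP53 lay between 19.96 and 31.2 in siControl, and NOP16 and RRP8 at 10.47 and 10.004. RRS1, WDR74, NOL9, NOL12 and RRP15 were the weakest, between 2.77 and 5.40 in siControl, and NOL12 had the lowest siControl rank of all members at 19.1.

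For most members the ranks in siControl and siAATF were close. The median difference, siAATF minus siControl, was 0.79 points (interval −0.63 to 2.22, n = 54), beside 0.18 over 11774 coding genes with a peak in both lists. The difference was at most 10 points in 42 of the 54 members, beside 73.9% of coding genes. The rank was lower in siAATF in 23 members (42.6%), beside 48.8%, and by −log10 q it was lower in 20 (37.04%), beside 44.4%. The share of members on the lower side was therefore below that of coding genes in both measures, with intervals of 29.2 to 56.8 and 24.3 to 51.3 that include the values of all coding genes.

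A rank higher in siAATF by over 20 points was seen in 4 members (7.41%, 2.06 to 17.9), beside 3.7% of coding genes, and a rank lower by over 20 points in 1 member (1.85%), beside 2.93%. RRP36, a processome protein, differed most, with a rank of 25.1 in siControl and 62.8 in siAATF, and its −log10 q was 3.84 and 9.30. WDR36 followed with the values given for UTP-B. RRS1, a factor that brings the 5S particle to the large subunit, was at ranks 34.9 and 63.0 with −log10 q of 5.40 and 9.29. NOL9, the kinase that acts on the spacer RNA, was at ranks 22.5 and 50.3 with −log10 q of 2.97 and 6.03. These 4 lay below the median of the siControl list and none held a core.

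WDR74 had the next largest difference upward, 19.4 points, but different peaks were compared. The siControl peak lay 7.42 kb from its start, at the start of STX5, with a −log10 q of 4.80, and the siAATF peak lay 2.10 kb away on the other side with 9.76. UTP11 had a rank of 82.0 in siControl and 61.3 in siAATF, a difference of −20.7 points, with −log10 q of 15.5 and 11.6 in peaks that both covered its core. RRP15 differed by −18.9 points and was the lowest member in siAATF, at a rank of 3.66 and a −log10 q of 1.23. NHP2 and NOL8 each differed by −16.4 points, and PES1 by −9.72. The −log10 q was under 5 in siControl and over 5 in siAATF for 4 members, WDR36, RRP36, WDR74 and NOL9 (7.41%, 2.06 to 17.9), beside 3.38% of coding genes with a peak in both lists. The reverse held for NOL6 (1.85%, 0.047 to 9.89), beside 3.4%, and both intervals include the shares of all coding genes. WDR74 is counted through the different peaks named above. Its peak at the STX5 start was under 5 in both lists, at 4.80 in siControl and 4.90 in siAATF.

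The larger differences lay among weak peaks. Of the 17 members with a siControl −log10 q under 10, 12 had a higher and 5 a lower rank in siAATF, with a median difference of 5.99 points, and 4 differed by over 20 points (23.5%), beside a median of 2.00 and 13.7% over the 3607 coding genes in the same range. Of the 37 members at 10 or more, 19 had a higher and 18 a lower rank in siAATF, with a median of 0.35, and 1 differed by over 20 points (2.70%), beside 3.50% of coding genes. Of the 3607 coding genes under 10, 2046 had a higher and 1561 a lower rank in siAATF. The split was made on siControl values, which also enter the difference, so some upward shift among weak peaks is built in. This holds also for the 4 members that rose by over 20 points. The number of reads behind each peak was unknown, so the counting error of a rank could not be computed from the lists.

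**Figure D2:**
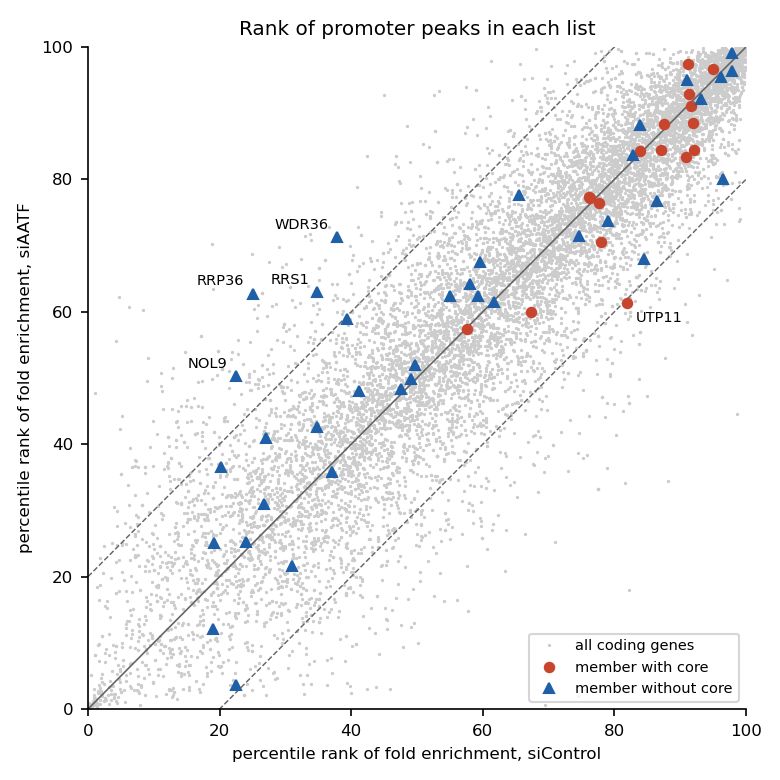
Percentile rank by fold enrichment of each promoter peak in the siControl list (x axis) and the siAATF list (y axis), with coding genes in grey and members as red circles (core with up to 1 mismatch in the siControl peak) or blue triangles (no core). The solid line marks equal ranks and the dashed lines a difference of 20 points; WDR36, RRP36, RRS1 and NOL9 lie above the upper line and UTP11 lies below the lower one.

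A core with up to 1 mismatch lay in the siControl peak of 17 members (31.5%, 19.5 to 45.6), beside 24.2% of coding genes with a promoter peak. In siAATF peaks it was found in the same 17 members (30.4%), beside 24.4%. An exact core was present in 4 members in each list, UTP18, DKC1, NOL7 and RRP12, which is 7.41% in siControl beside 3.95% and 7.14% in siAATF beside 4.01%, and for RRP12 it lay at the PGAM1 start. A control palindrome of the same bases, made from the half-site CGGCA and its reverse complement, was found in 2 siControl peaks (3.70%), WDR43 and TSR1, beside 3.7%, and in 1 siAATF peak (1.79%), WDR43, beside 3.61%. In 2 kb windows centred on the canonical starts, taken without regard to peaks, 17 of the 60 members held a core (28.3%), beside 15.9% of coding genes, with WDR74 in place of RRP12, and 2 held the control palindrome (3.33%), beside 3.72%.

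The 17 members held 26 cores, and all 26 lay within the peaks of both lists. By position 22 were upstream of the canonical start, 1 in the untranslated part and 1 in the coding part of exon 1, and 2 in intron 1, and 14 were within 200 bp of the start. The 22 include the 3 cores of RRP12, which lay at the PGAM1 start, 24733 to 24892 bp from its canonical start. The change A5C or T6G was carried by 14 of the 26 cores (53.8%), including the overlapping copies of NOP56 and RRP1. Over the 3282 sites in all promoter peaks the same word made up 36.0% and the exact core 12.8%.

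Members with a core had higher −log10 q than members without one. The 17 had a median −log10 q of 69.1 in siControl and 62.3 in siAATF, against 10.5 and 11.3 for the 37 members with peaks in both lists and no core, and the lowest was UTP11 at 15.5 in siControl. The same contrast was present over all coding genes, with siControl medians of 66.4 with a core and 12.3 without. Peaks with a core were also wider, with a median of 970 bp against 729 bp in the members. The rank differed by a median of −0.60 points between the lists for members with a core and by 2.22 points for those without, and the median size of the difference was 1.69 and 6.22 points. Over all coding genes the same split gave medians of −0.46 and 0.65 points and sizes of 3.13 and 6.14 points. Strong peaks without a core were UTP4 at 66.3, RRP7A at 55.3 and NOP2 at 53.8 in siControl.

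The E-box was present in the siControl peaks of 32 of 54 members (59.3%, 45.0 to 72.4), beside 19.6% of coding genes with a promoter peak. In 2 kb windows at the canonical starts it was found in 45 of the 60 members (75%, 62.1 to 85.3), beside 29.2% of coding genes. The member peaks had a median G and C content of 63.4% beside 67.7%, and a median width of 813 bp beside 856 bp. Whether composition or width bears on the E-box shares was not tested. For comparison, the other 7 palindromes of 6 bases with the same composition and a central CpG were searched after the E-box value was seen. They were found in 3.70% to 38.9% of member peaks beside 5.23% to 30.2% of coding-gene peaks. The highest of these, TGCGCA, overlaps the core. All but ACCGGT and GACGTC had a higher share in member peaks than in coding-gene peaks. In 2 kb windows all but ACCGGT, at 10% beside 11.6%, had a higher share in members. The highest there were TCCGGA at 50% beside 29.6% and AGCGCT at 48.3% beside 32.5%. Higher shares in members were thus not limited to the E-box. How much of the E-box difference these words share was not tested. The ETS word CCGGAA, searched on both strands, was in 36 member peaks (66.7%, 52.5 to 78.9), beside 49%, and in 47 member windows (78.3%), beside 51.2%.

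By role, the E-box was found in 6 of 7 box C/D and MPP10 peaks, 11 of 18 peaks of other small-subunit factors, 8 of 15 large-subunit peaks, 3 of 5 UTP-A peaks, 3 of 6 UTP-B peaks and 1 of 3 box H/ACA peaks. The 32 members held 38 E-boxes in these peaks, of which 28 were within 200 bp of the canonical start, with a median distance of 50.5 bp. Closeness to the start is partly set by searching inside peaks, most of which covered the start. In all 16 lay in the untranslated part of exon 1, 12 upstream, 3 in the coding part of exon 1, 4 in intron 1 and 3 elsewhere. An E-box and a core occurred together in the siControl peaks of 13 members (24.1%, 13.5 to 37.6), beside 5.8% of coding genes with a promoter peak, and at most 50 bases apart in 8 (14.8%, 6.62 to 27.1), beside 1.46%. The limit of 50 bases was set after the members' sites had been seen. The 13 had a median siControl −log10 q of 71.7, the 4 with a core alone 57.8, the 19 with an E-box alone 10.004 and the 18 with neither 11.5.

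Where no core was present, the E-boxes nearest to a start were those of PWP2, RCL1 and UTP4, given here to show the word on its own, with the E-box in capitals.
PWP2: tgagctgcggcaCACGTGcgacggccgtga
RCL1: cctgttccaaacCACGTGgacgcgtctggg
UTP4: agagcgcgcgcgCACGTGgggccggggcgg

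The PWP2 window is chr21:45527269-45527298 with the E-box centred 3 bp downstream of the start, the RCL1 window is chr9:4792936-4792965 with the E-box 6 bp downstream, and the UTP4 window is chr16:69166524-69166553 with the E-box 14 bp upstream, all on the plus strand. Their siControl peaks had −log10 q of 26.0, 23.1 and 66.3. A match is a description of the letters in the window and does not show which protein was bound.

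**Figure D3:**
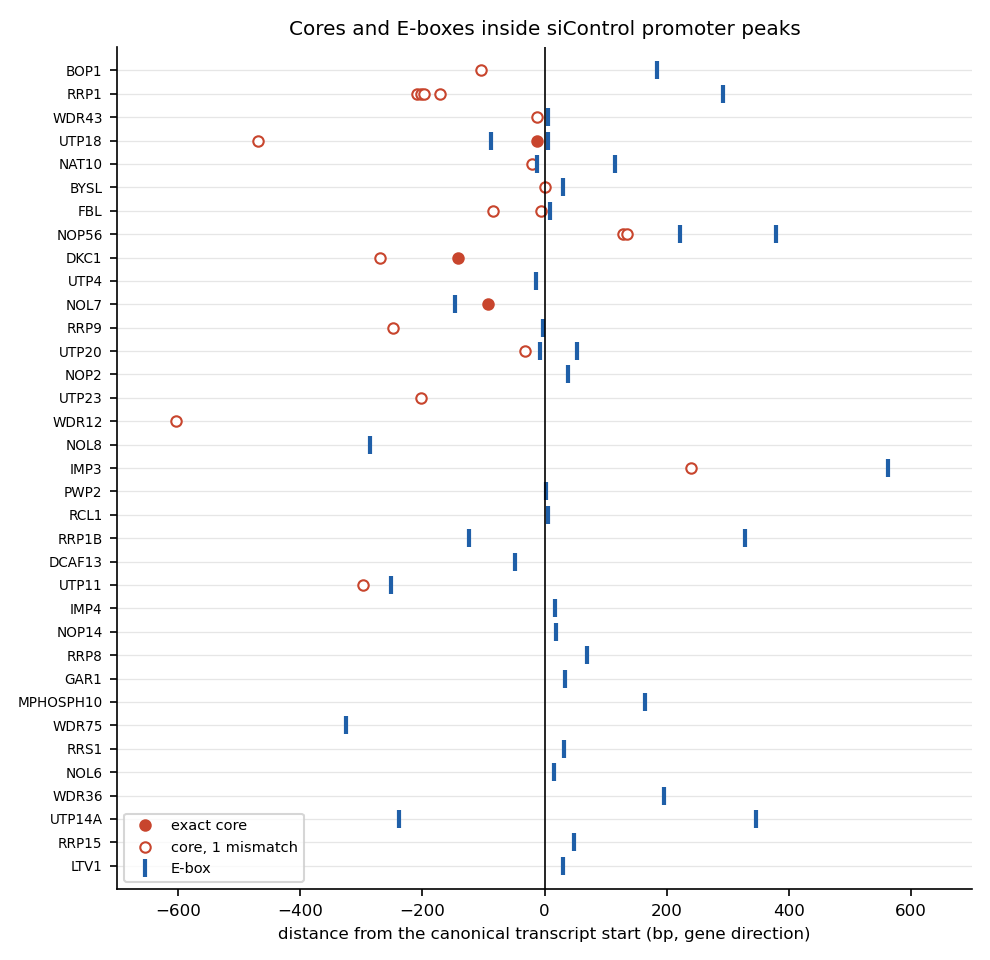
Position of cores (filled circle, exact; open circle, 1 mismatch) and E-boxes (blue bars) inside the siControl promoter peaks, in bp from the canonical transcript start in gene direction, for each member with either word except RRP12, ordered by −log10 q. Cores lie mainly upstream of the start at the members with the strongest peaks, while 28 of 38 E-boxes lie within 200 bp of the start. Both words were searched only inside the peaks, most of which cover the start, so closeness to the start is partly set by the search.

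Many members lie close to the start of another gene. A protein-coding gene on the opposite strand started within 1 kb of 20 members (33.3%, 21.7 to 46.7), beside 9.33% of coding genes. For 18 of these 20 the same siControl peak was counted for both genes, which 1 kb windows around starts this close make likely. The remaining 2, NOP10 and WDR46, had no peak. Among the 18, the siControl peaks of IMP4 and NOL9 covered the member's canonical start only, and those of WDR12 and NOL8 the neighbour's only. A snoRNA gene lay inside 7 members (11.7%), NOL11, WDR43, NOP56, NOP58, DKC1, TSR1 and NOP53, beside 2.1%. The siControl peak covered the canonical start of 49 of 54 members (90.7%), beside 83.6%, and the exceptions were RRP12, PES1, WDR12, WDR74 and NOL8.

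The same measures were taken for 74 other ribosome assembly genes, among them AATF, NGDN and NOL10, listed by role without regard to their peaks. A promoter peak was found for 70 of them in siControl (94.6%) and 71 in siAATF (95.9%), beside 61.1% and 60.7% of coding genes. Median ranks were 74.01 and 74.66, with a median rank difference of −0.21 points. A rank higher by over 20 points was seen in 3 of 70 (4.29%), NIP7, SDAD1 and MDN1, beside 3.7% of coding genes. A rank lower by over 20 points was seen in 2 (2.86%), DHX37 and LAS1L, beside 2.93%. A core lay in 21 of 70 siControl peaks (30%), beside 24.2% of coding genes, and an exact core in 3, beside 3.95%. An E-box lay in 31 (44.3%, 32.4 to 56.7), beside 19.6%, and the ETS word in 46 (65.7%), beside 49%. An opposed neighbour was present for 25 of 74 (33.8%), beside 9.33%. The shares of these other assembly genes lay within the intervals of the 60 members, except that the E-box share in peaks was just below their lower bound of 45.0%. Below the members' intervals were also the E-box in 2 kb windows, in 43 of 74 (58.1%, 46.1 to 69.5), the core and E-box at most 50 bases apart, in 4 of 70 peaks (5.71%, 1.58 to 14.0), AATF among them, and a snoRNA inside the gene, in 3 of 74 (4.05%, 0.844 to 11.4). The intervals of both lists overlap for each of these, and the differences were not tested.

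AATF itself, the siRNA target, had a promoter peak with a −log10 q of 73.5 in siControl and 64.3 in siAATF and ranks of 72.6 and 72.4. Its core carried T6C and lay 105 bp upstream of the start, at chr17:35306135-35306164 on the plus strand, and is printed as the only core of the AATF complex, with the core in capitals. NGDN had no siControl peak and a siAATF peak with a −log10 q of 1.92, and NOL10 had no promoter peak in either list. Peak lists hold no measure of AATF RNA or protein, so the depletion was not checked here.
AATF: gcactcgcacGCGCACGCGCacacgcgccc

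**Figure D4:**
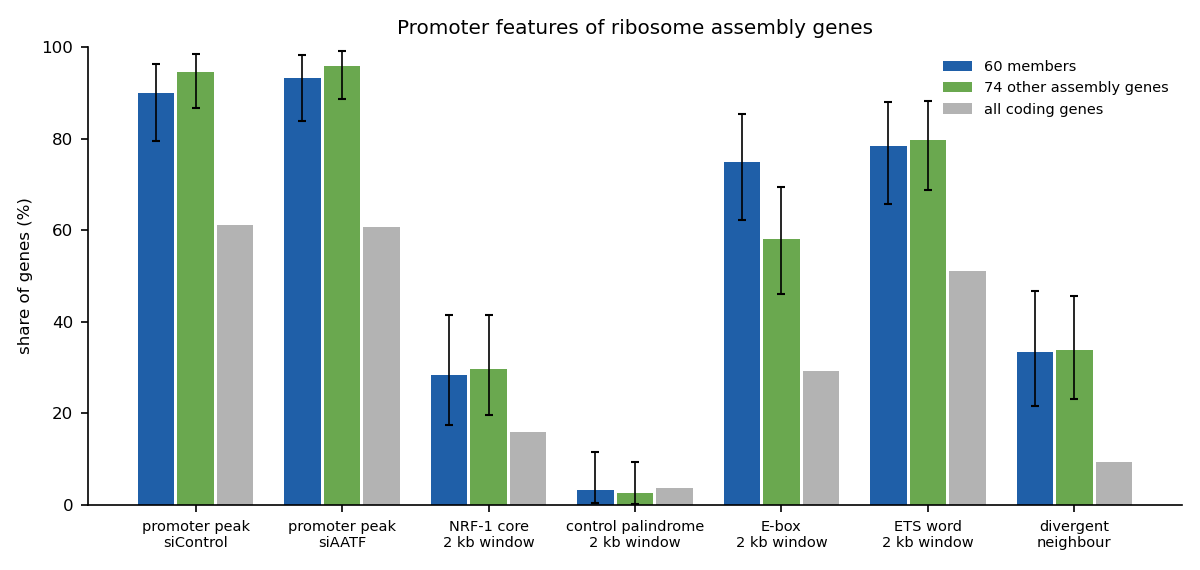
Share of genes (y axis, %) with a promoter peak in each list and with each sequence feature in 2 kb windows at canonical starts, for the 60 members, 74 other ribosome assembly genes and all coding genes. Bars on the first 2 groups are exact 95% binomial intervals. The members reach 75% for the E-box beside 29.2% of coding genes. For the core they reach 28.3% beside 15.9%, and for the control palindrome of the core 3.33% beside 3.72%. The control palindrome was not made to match the E-box.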

How the data were processed

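NRF-1 ChIP-seq lists of U251 cells, 1 for siControl and 1 for siAATF, were analysed. Per the labels and the study's methods, reads were aligned to hg19 with Bowtie2 and MACS2 called broad peaks inside an ATAC-seq pipeline, which may shift reads at the transposase cut and move peak edges in both lists alike. The Bowtie2 and MACS2 versions and any pooling of duplicates were not given in the sources used here. Positions in bp, the fold enrichment (a ratio), the −log10 p and −log10 q and a display score, equal to the −log10 q times 10 and truncated, were deposited by the authors. The −log10 p was not used further. Depth was unknown, so fold enrichment was ranked within its own list only.

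Peaks were assigned to promoters and searched for words on the GRCh37 sequence in Python 3.11.15 (pandas 2.3.3, numpy 2.4.6, scipy 1.17.1), and figures were drawn with matplotlib 3.10.9. The scripts were tested on simulated data. Medians carry 95% order-statistic intervals. Named in detail were members lacking a peak, the 6 with the highest −log10 q per list, the 5 largest rises and falls of rank, exact cores, members crossing a −log10 q of 5, the 2 lowest ranks per list, the strongest member per role and the AATF complex. The remaining members were named so that each is accounted for. Members, lists and words were chosen with earlier results of these data known.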

Additional observations from a re-analysis of the deposited data

How the results depend on the processing

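Over 10 results and their 53 values under alternatives, 40 kept within 1.5 times the main count or within the interval of the main value, 13 moved and 0 reversed direction. The share of members with a promoter peak was 73.3% in siControl and 78.3% in siAATF with a −log10 q of at least 5, and 63.3% and 73.3% among the 10000 strongest peaks, fewer peaks being left by construction. The siAATF median rank was 60.7 with a −log10 q of at least 5 and 58.6 when ranked among promoter peaks only. The count of members whose rank differed by over 20 points, 5 in the main setting, was 8 when ranked among promoter peaks and 3 when ranked by −log10 q. The cause was not tested for these ranks. Counting exact matches alone, cores were in 7.41% of member peaks in siControl and 7.14% in siAATF. Within 100 bp of the peak midpoint the E-box was in 29.6% and the ETS word in 37% of member peaks, a shorter sequence, and the E-box reached 75% in 2 kb windows. Shares of all coding genes are not given here for the 10000 strongest peaks or for words within 100 bp of the midpoint. Whether members differ from coding genes under those settings is therefore not shown. The 2 kb windows for the E-box and ETS word and the restriction of rank differences to overlapping peaks were chosen after seeing the data. No paired analysis was possible because each condition had only 1 list. With no replicates and unknown depth, weak peaks present in 1 list cannot be told apart from peaks just under the calling threshold of the other.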
